A study of Mus musculus with 2 samples.

Results

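Prox1, a single gene among the 13373 in the deposited table (1 of 13373), was followed over 1241 cells of a DBZ library and 968 cells of a DMSO library. It was taken by its name as the row Prox1, and the genes described beside it are those whose values went up and down with it from cell to cell inside both libraries. The cells came from intestinal organoids, small epithelial cultures, of C57Bl mice aged 3 to 4 months, and both libraries are Apc mutant. DBZ inhibits gamma-secretase, the protease whose cut activates Notch receptors. DMSO is the solvent. A protocol text common to both samples lists 300 nM 4-OH-tam (4-hydroxytamoxifen, used to switch on inducible Cre recombinases) and 10 uM DBZ, and the sample titles were followed for which library received DBZ. The Apc allele and the Cre driver, and how many animals and organoid lines were used, are not given in the sources read here. Each group was 1 library of droplet single-cell RNA sequencing, so the comparison describes these 2 libraries, it has no replicate check, and every interval below covers counting error only.

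Prox1 encodes a homeobox transcription factor of the Prospero family. It is best known as the factor that sets the identity of lymphatic endothelium, and it also acts in the developing liver, lens and nervous system. In the healthy intestine it is found in enteroendocrine cells, the hormone-making secretory cells. In intestinal tumours with active Wnt signalling it is a known target of beta-catenin and TCF factors. APC is part of the complex that degrades beta-catenin, and loss of Apc leaves this pathway on. Notch signalling, which DBZ blocks, normally holds intestinal progenitors back from the secretory fate.

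In the GENCODE vM21 annotation of GRCm38, the assembly also called mm10, Prox1 is a protein-coding gene on the minus strand, chr1:190118035-190170714. RefSeq, on GRCm38.p6, gives it a pair of start sites, and the 250 bases upstream of each are shown because Wnt and Notch effectors are known to act through short motifs of this kind. Both strands were searched for the TCF core CTTTGA or CTTTGT and for CACNAG, an N-box to which HES repressors bind. Capitals mark the matches, and a match on the other strand reads as its reverse complement.
Prox1 upstream window 1, chr1:190170828-190171077, minus strand: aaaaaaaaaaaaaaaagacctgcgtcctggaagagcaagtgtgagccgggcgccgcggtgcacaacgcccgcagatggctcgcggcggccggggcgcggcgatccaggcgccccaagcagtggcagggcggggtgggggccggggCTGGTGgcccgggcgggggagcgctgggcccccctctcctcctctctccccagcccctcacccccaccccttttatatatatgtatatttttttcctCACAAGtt
Prox1 upstream window 2, chr1:190169516-190169765, minus strand: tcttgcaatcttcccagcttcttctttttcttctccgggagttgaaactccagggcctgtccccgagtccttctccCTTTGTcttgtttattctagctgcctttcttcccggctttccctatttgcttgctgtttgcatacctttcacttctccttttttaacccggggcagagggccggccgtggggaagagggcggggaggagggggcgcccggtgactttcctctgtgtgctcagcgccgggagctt
Window 1 had 64.8% G and C, 2 N-box matches and 0 TCF matches. Window 2 had 1 TCF match and 0 N-box matches. Of 32851 such windows in the RefSeq table, 27.6% held a TCF match and 36.7% an N-box match, so neither is rare. Window 1 overlaps the antisense gene Prox1os and window 2 lies inside Prox1 and overlaps an exon of the antisense gene Gm28172.

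The cells were epithelial by their markers, with UMIs (molecular barcodes that let each captured transcript be counted once) of Epcam in 99.0% of DBZ and 99.8% of DMSO cells. Among endothelial genes, Pecam1 had UMIs in 3.38% and 3.10% of cells, Lyve1 in 0% and 3.82%, and Cdh5, Flt4 and Pdpn had no row in the table. Cells held 5187 to 59745 UMIs in the DBZ library and 5241 to 56915 in the DMSO library, with medians of 10901 and 11183. The libraries shared 3 cell barcodes. Matched depth means that each cell was thinned at random to 5000 UMIs, which left out 0 cells.

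Prox1 was higher in the DBZ library and was found in most cells of both. Its mean level was 9.42 per 10000 UMIs over DBZ cells, from 14142 UMIs, and 5.90 over DMSO cells, from 6598. This is 1.59-fold, or 0.67 on the log2 scale. Pooled UMIs gave 0.79 (95% exact interval 0.75 to 0.84). Of 8797 genes detected in 10% or more of DBZ or DMSO cells, 8.55% had a mean level at least 1.5-fold higher in the DBZ library, and Prox1 stood at place 541 from the top. The median log2 change of all these genes was 0.11.

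On the log2 scale, the difference was wider among the cells with little Prox1 than among those with much. The gap between the levels themselves went the other way. The lower quartile of the level was 4.16 in DBZ cells and 1.48 in DMSO cells, which is 1.46 on the log2 scale. The medians were 8.37 and 4.52, a difference of 0.88. At the upper quartile the values were 13.4 and 9.31, and at the 90th percentile 18.6 and 13.0, differences of 0.52 and 0.51. The highest single cell had 49.9 among DBZ cells and 30 among DMSO cells. The 5 highest cells gave 1.59% and 2.29% of the summed level, so few cells did not carry the mean.

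At 5000 UMIs per cell, Prox1 averaged 4.64 UMIs in DBZ cells and 3.01 in DMSO cells. Its variance was 2.93 and 2.92 times its mean, so the cells differed more than Poisson counting around 1 common level would give. Cells with 0 Prox1 UMIs made up 10.8% of DBZ and 23.7% of DMSO cells, where a Poisson count of the same mean would give 0.961% and 4.95%. Cells with more than 10 Prox1 UMIs numbered 102 (8.22%) and 18 (1.86%). A pair of non-overlapping sets of 2500 UMIs was also drawn at random from each cell. The ln(1 + count) of Prox1 correlated between the sets at r = 0.514 in both libraries.

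**Figure D1:**
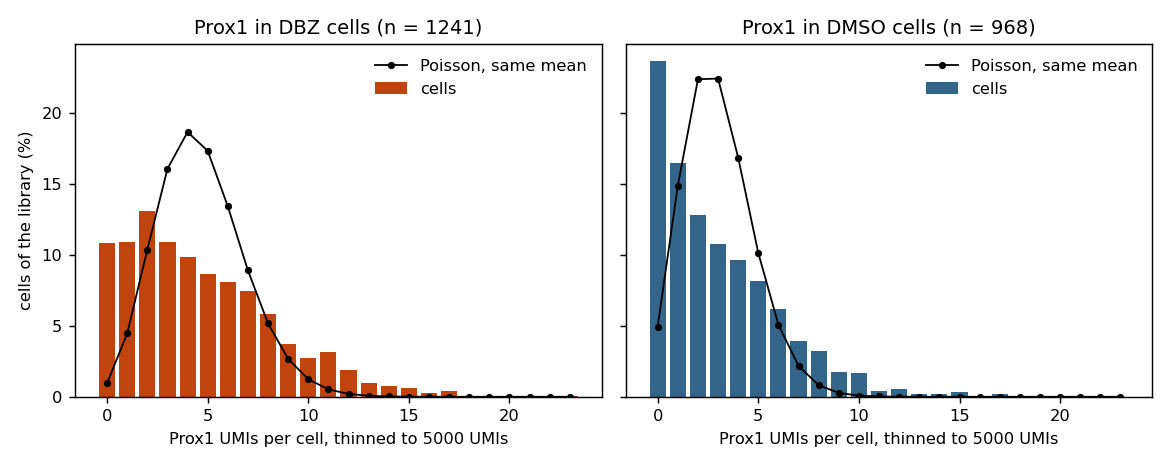
Share of cells (%) at each Prox1 UMI count after thinning to 5000 UMIs, for DBZ and DMSO cells, with the Poisson curve of the same mean. Both libraries have more cells at 0 than the curve (10.8% and 23.7%) and a longer upper tail.

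Prox1 was lower in cells with more RNA, and this was steeper in the DMSO library. Cells were put into 4 equal bins by total UMIs. In the bin of fewest UMIs, 5187 to 8585, the mean level was 11.3 in DBZ cells and 8.15 in DMSO cells. In the second bin it was 9.73 and 7.05. In the third bin it was 8.56 and 4.94, and in the bin of most UMIs 7.90 and 3.69. The DBZ library was higher in all 4 bins, by 0.48, 0.46, 0.80 and 1.17 on the log2 scale of pooled UMIs. The bin of most UMIs had an interval of 1.10 to 1.25 and that of fewest 0.39 to 0.58. Thinned Prox1 correlated with log total UMIs at r = -0.205 over 1241 DBZ cells and -0.363 over 968 DMSO cells. It correlated with the share of ribosomal protein transcripts at -0.196 and -0.234 and with the mitochondrial share at 0.171 and 0.115. Cells of 1 library share culture and preparation, so these values describe the libraries.

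Grouping the cells by all other variable genes, with Prox1 left out, gave 11 clusters that differed in Prox1. They are named here by their leading genes, and carry a cell type only where at least 3 of the top 10 genes were markers of it. The highest Prox1 was in the cluster led by Spock2, Mt3 and Pycr1, with a mean level of 15.3 over 194 DBZ cells and 12.9 over 43 DMSO cells. In that cluster all cells had a Prox1 UMI. Among DBZ cells there followed the cluster led by Nts, Ly6d and Aldh1a2 (12.0 over 205 cells) and that led by Cyp2c55 (10.8 over 200 cells). Among DMSO cells the next was the cluster led by Pnliprp2, Egr4 and Cited4, immediate early genes among them, at 10.2 over 192 cells.

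Intermediate levels were found in the cluster led by Hes6 and Id1, at 8.25 over 122 DBZ cells and 7.28 over 84 DMSO cells. The DMSO cluster led by Gdf15 and Pmp22 had 5.65 over 144 cells. The cluster led by the mitosis genes Ube2c, Nusap1 and Cenpf had 5.71 over 132 DBZ cells and 2.96 over 161 DMSO cells. The cluster led by Ifi27l2b and Amica1 had 5.16 over 58 and 3.85 over 185 cells. The lowest was the cluster led by Sprr1a, Reg3g and Hmox1, with 2.57 over 28 DBZ cells and 2.58 over 88 DMSO cells.

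From the lowest to the highest cluster, Prox1 spanned 5.97-fold over 9 clusters of DBZ cells and 5.0-fold over 8 clusters of DMSO cells with at least 20 cells. The span depended on the clustering: at resolution 2 it was 10.9-fold and 13.5-fold, and with 1000 variable genes 13.1-fold in DMSO cells. In the order of levels, 2 of 8 neighbouring pairs in the DBZ library and 1 of 7 in the DMSO library had overlapping counting intervals. In the DBZ library these were the Hes6 and enteroendocrine-like clusters, and the mitosis-led and Ifi27l2b clusters. In the DMSO library they were the mitosis-led and Sprr1a clusters. Cluster membership held 27.9% of the variance of Prox1, taken as ln(1 + count) after thinning, over DBZ cells and 30.3% over DMSO cells. The rest includes counting noise.

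**Figure D2:**
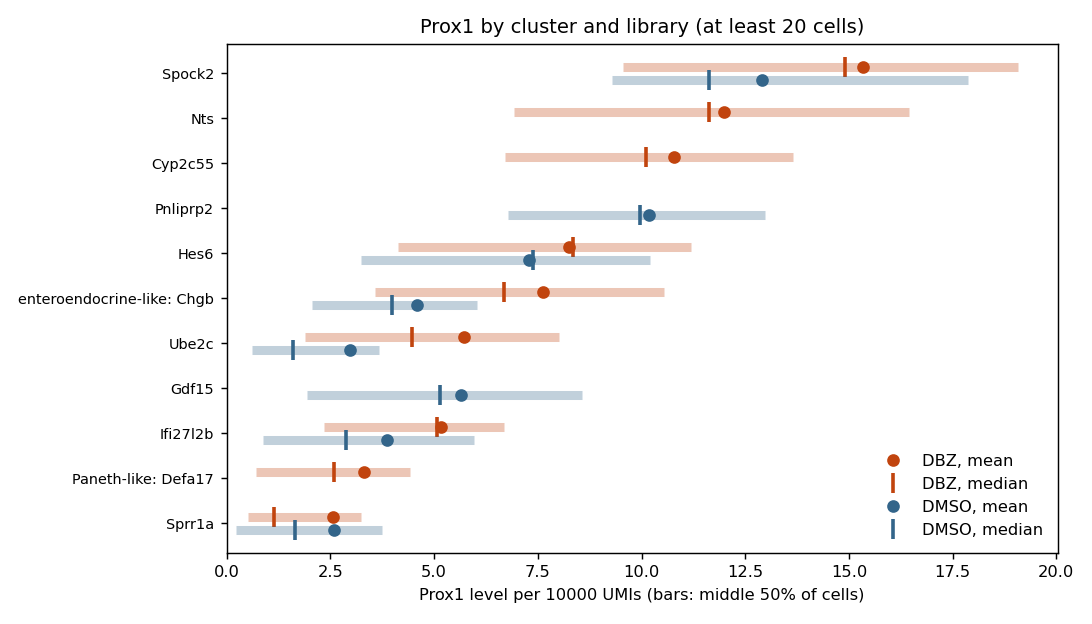
Prox1 level per 10000 UMIs by cluster, named by its first leading gene, for DBZ and DMSO cells in clusters with at least 20 cells of that library. Points are means, upright ticks medians and bars the middle 50% of cells. The Spock2 cluster is highest in both (15.3 and 12.9), and the bars of neighbouring clusters overlap widely.

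The hormone-making cells did not hold the highest Prox1. The enteroendocrine-like cluster, led by Chgb, Chga and Reg4, had a mean level of 7.62 over 218 DBZ cells and 4.58 over 44 DMSO cells, below the mean of all cells of its library in each case. Inside it, the 187 DBZ cells with a UMI of Chga or Chgb, which encode the granule proteins chromogranin A and B, had 7.46, and the 31 cells without had 8.60. In the DMSO library 35 cells with such a UMI had 4.89 and 9 cells without had 3.39. The counting intervals of the cells with and without overlapped in both libraries, so no order is given. Over all thinned cells, the 52 DBZ cells with a UMI of Neurog3, the factor that starts the enteroendocrine lineage, had a Prox1 level of 4.88, against 9.48 in the 1189 without. In the DMSO library 12 cells with Neurog3 had 4.00 and 956 without had 6.04. For Chgb the values with and without a UMI were 7.74 and 9.67 among DBZ cells, and 6.14 (42 cells) and 6.01 among DMSO cells. The Paneth-like cluster, led by defensin genes, was among the lowest, with 3.30 over 76 DBZ cells. Even there 84.2% of cells had a Prox1 UMI at a median of 14859 UMIs per cell. No cluster is sure to lack the gene, so the part of free RNA in these UMIs was not tested.

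The DBZ library was higher inside most shared clusters, by unequal amounts. In 6 clusters with at least 20 cells of each library, the log2 difference of mean levels ran from -0.01 to 0.94, and 5 of 6 were higher in DBZ cells. Pooled UMIs gave 0.98 (0.86 to 1.10) in the mitosis-led cluster and 0.77 (0.55 to 0.99) in the enteroendocrine-like cluster. They gave 0.49 (0.32 to 0.66) in the Ifi27l2b cluster, 0.24 (0.11 to 0.37) in the Spock2 cluster and 0.17 (0.04 to 0.31) in the Hes6 cluster. The Sprr1a cluster had -0.10 (-0.44 to 0.22), an interval that includes 0. The clusters of lowest difference thus included the highest and the lowest in Prox1. With the 6 shared clusters weighted by their combined cell number, the same in both libraries, the mean was 7.78 in DBZ cells and 5.79 in DMSO cells, a log2 difference of 0.42. In 4 clusters over 90% of cells came from a single library; these clusters had 766 cells, and without them, at the make-up as found, the levels were 8.48 and 4.55 and the difference 0.89. Treatment and library cannot be told apart.

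**Figure D3:**
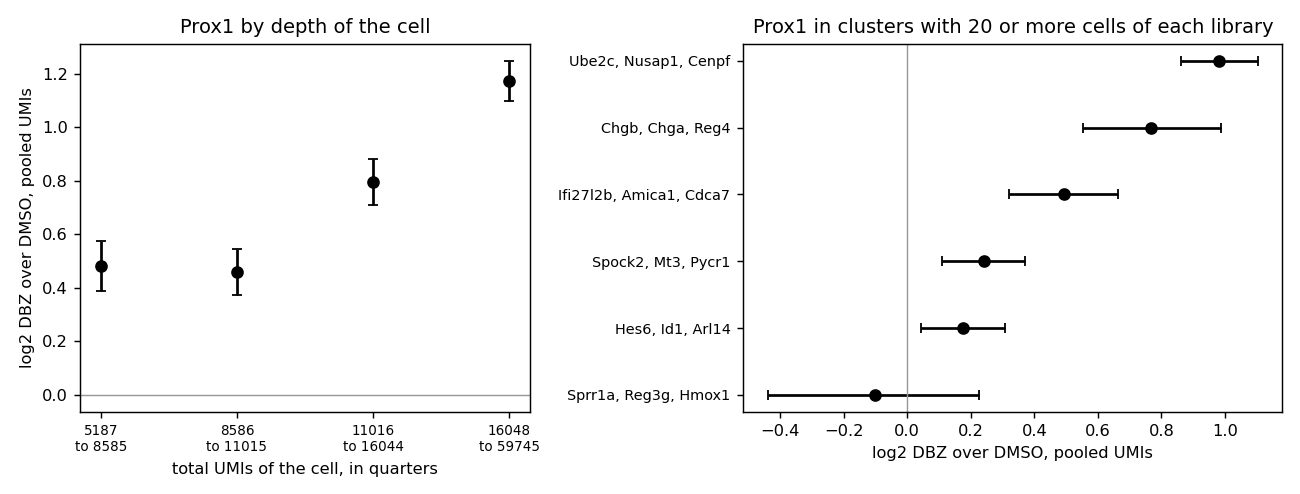
Log2 ratio of Prox1 in DBZ over DMSO cells from pooled UMIs, by bin of total UMIs per cell (left) and by shared cluster (right), with 95% exact counting intervals. The ratio is largest in the deepest cells (1.17) and in the mitosis-led cluster (0.98), and only the Sprr1a cluster has an interval that includes 0.

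Genes that follow Prox1 were sought among the 4982 genes with a UMI in at least 10% of thinned cells of both libraries. A gene was said to follow Prox1 when the Pearson r of ln(1 + count) was at least 0.1 in both libraries, and to run against it at -0.1 or less in both. By that rule 280 genes followed (5.62%) and 156 ran against it (3.13%). The counts depended on the setting, with 100 and 64 at 2500 UMIs, 480 and 310 without thinning and 46 and 23 with cluster means taken out. The median r over all genes was 0.0257 in DBZ cells and 0.0145 in DMSO cells. Of the 50 genes of highest r in the DMSO library, 44 reached 0.1 in the DBZ library, and 23 were among its own top 50. A single gene had r past 0.1 in opposite directions. Of the 280 followers, 80 had a mean level at least 1.5-fold higher in the DBZ library and 7 a level that much lower. Of the 8797 genes, a wider set that needed detection in only 1 of the libraries, 8.55% were that much higher and 4.66% that much lower. The median log2 change was 0.329 over the followers and 0.0786 over the 4982 genes tested.

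The 2 closest followers were Wnt feedback inhibitors. Nkd1, which binds Dishevelled and dampens Wnt signalling, had r = 0.480 over DBZ cells and 0.493 over DMSO cells. Notum, a secreted enzyme that strips Wnt proteins of their lipid, had 0.450 and 0.514. At 2500 UMIs per cell the smaller r of the libraries was 0.334 for Nkd1 and 0.345 for Notum, against 0.514 for Prox1 with itself at that depth. Seen from the other side, Prox1 was the gene of highest r, of 4982, for Nkd1 and for Notum in the DMSO library. In the DBZ library it was at place 2 for Nkd1 and 6 for Notum. Dkk3, a secreted protein of the Dickkopf family, had 0.351 and 0.355.

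The levels behind these correlations differed over the whole range of Prox1. Thinned cells were put into classes of 0, 1 to 2, 3 to 5, 6 to 10 and over 10 Prox1 UMIs, holding 134, 297, 364, 344 and 102 DBZ cells and 229, 283, 276, 162 and 18 DMSO cells. Nkd1 had levels of 3.97, 7.72, 10.99, 13.5 and 16.3 per 10000 UMIs over these classes in the DBZ library. In the DMSO library it had 3.08, 5.58, 8.41, 11.4 and 17.4. It was higher at every step in both. Notum went from 3.69 at 0 to 30.04 at over 10 in the DBZ library, and from 1.61 to 33.9 in the DMSO library. The 5 highest cells held 39.7% of the Notum UMIs of the DBZ class at 0, so that its typical cell lay lower. Dkk3 went from 0.433 to 3.65 and from 0.515 to 3.56. Total UMIs and ribosomal share moved with the classes. The median total was 14129 at 0 and 9376 at over 10 in the DBZ library, and 15110 and 9825 in the DMSO library. The median ribosomal share was 21.4% and 16.6%, and 28.4% and 23.3%.

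**Figure D4:**
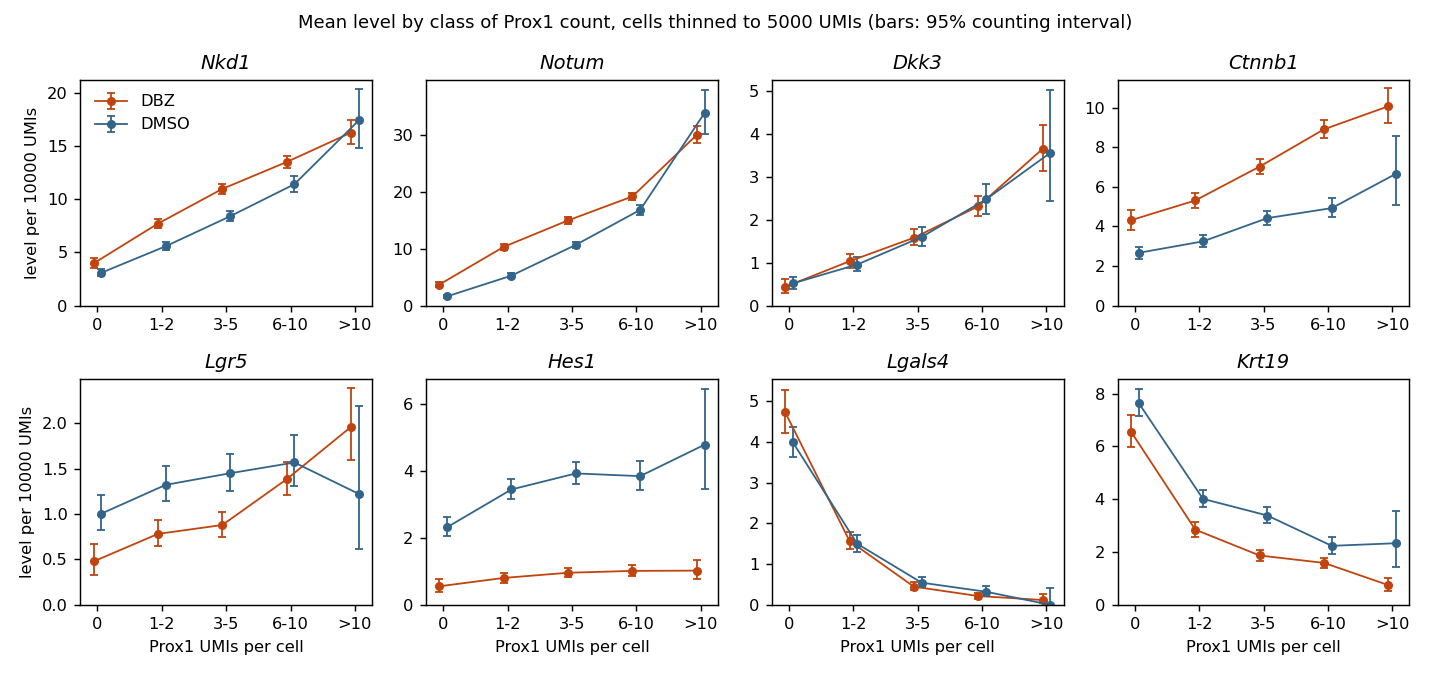
Mean level per 10000 UMIs of named genes over classes of Prox1 UMIs per cell, at 5000 UMIs per cell, for DBZ and DMSO cells, with 95% counting intervals. Nkd1 and Notum are higher at each step (Notum 1.61 to 33.9 in DMSO cells), and Lgals4 is lower at each step.

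Of 27 listed Wnt targets 21 could be tested, and 11 followed Prox1 while 2 ran against it. Over all genes tested, 5.62% followed and 3.13% ran against it. The median r of the list was 0.151 in DBZ cells and 0.125 in DMSO cells. Beside Nkd1, Notum and Dkk3 the followers were Axin2, Wif1, Rnf43, Znrf3, Lgr5, Lef1, Tcf7 and Sox4. Axin2, a scaffold of the complex that degrades beta-catenin, had r = 0.317 and 0.207. Wif1, a secreted Wnt-binding inhibitor, had 0.207 and 0.198. Rnf43 (0.180 and 0.125) and Znrf3 (0.204 and 0.101) are ubiquitin ligases that remove Frizzled receptors. The 2 that ran against it were Ccnd1 and Mmp7. Ccnd1, which encodes cyclin D1, had -0.187 and -0.213, and the matrix protease gene Mmp7, also a Paneth cell marker, had -0.271 and -0.194. Among the members that did neither, Myc had -0.0816 and -0.0148, Cd44 -0.0853 and -0.160, Ephb2 0.0166 and 0.0291, and Ephb3 0.0423 and 0.193.

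Most of the tested factors that carry the Wnt signal to DNA also followed Prox1. Of 5 beta-catenin and TCF genes tested, 4 followed and 0 ran against it, beside 5.62% and 3.13% of all genes tested. Lef1 and Tcf7 among them were already counted as Wnt targets. With cluster means taken out, 1 of the 5 followed. Ctnnb1, the gene of beta-catenin itself, had r = 0.366 in DBZ cells and 0.274 in DMSO cells. Its level went from 4.31 in cells at 0 Prox1 UMIs to 10.1 at over 10 in the DBZ library, and from 2.66 to 6.67 in the DMSO library. Lef1 had 0.238 and 0.192, Tcf7l2 0.198 and 0.110, and Tcf7 0.144 and 0.105. The coactivator gene Bcl9 had -0.000988 and 0.102.

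Stem cell genes were divided. Of 16 tested, 4 followed, the Wnt targets Axin2, Rnf43, Lgr5 and Znrf3, and 3 ran against Prox1. The shares over all genes tested were 5.62% and 3.13%. With cluster means taken out, 1 stem cell gene followed and 0 ran against Prox1. Lgr5, the R-spondin receptor that marks intestinal stem cells, had r = 0.211 in DBZ cells and 0.101 in DMSO cells, the latter at the edge of the rule. Its level went from 0.478 to 1.96 over the classes in the DBZ library. In the DMSO library it was 1.00, 1.32, 1.45, 1.57 and 1.22, with no steady order. Cdca7 had -0.163 and -0.253, Igfbp4 -0.155 and -0.150, and Slc12a2, an ion transporter gene, -0.164 and -0.101. Sox9 had 0.0826 in DBZ cells and 0.310 in DMSO cells.

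The other close followers came from several functions. Ifitm1 (r = 0.388 and 0.478) and Ifitm2 (0.392 and 0.419) encode interferon-induced membrane proteins. Whether reads were shared between these related genes was not tested. Cdkn1c, the gene of the cell cycle inhibitor p57, had 0.336 and 0.322, and the antiproliferative gene Btg1 had 0.312 and 0.355. With cluster means taken out, Cdkn1c had 0.149 and 0.0744, under the bound in DMSO cells. Minpp1, an inositol phosphate phosphatase gene, had 0.372 and 0.324. Spock2, which encodes an extracellular proteoglycan and leads the cluster of highest Prox1, had 0.337 and 0.294. Sypl had 0.291 and 0.360. Fth1, the ferritin heavy chain gene, had 0.340 and 0.288, and it has many processed copies, so its counts are uncertain. Malat1, a long noncoding RNA kept in the nucleus, had 0.446 and 0.416. Its level was 250.045 at 0 Prox1 UMIs, 378 at 1 to 2 and 625 at over 10 among DBZ cells, and 191, 263 and 424 among DMSO cells. With total UMIs and mitochondrial share taken out, 178 genes followed Prox1 and 80 ran against it. With Malat1 taken out as well, an alternative added after seeing the data, the counts were 96 and 36. Nuclear RNA content itself was not measured, and its part in the weaker correlations was not tested.

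**Figure D5:**
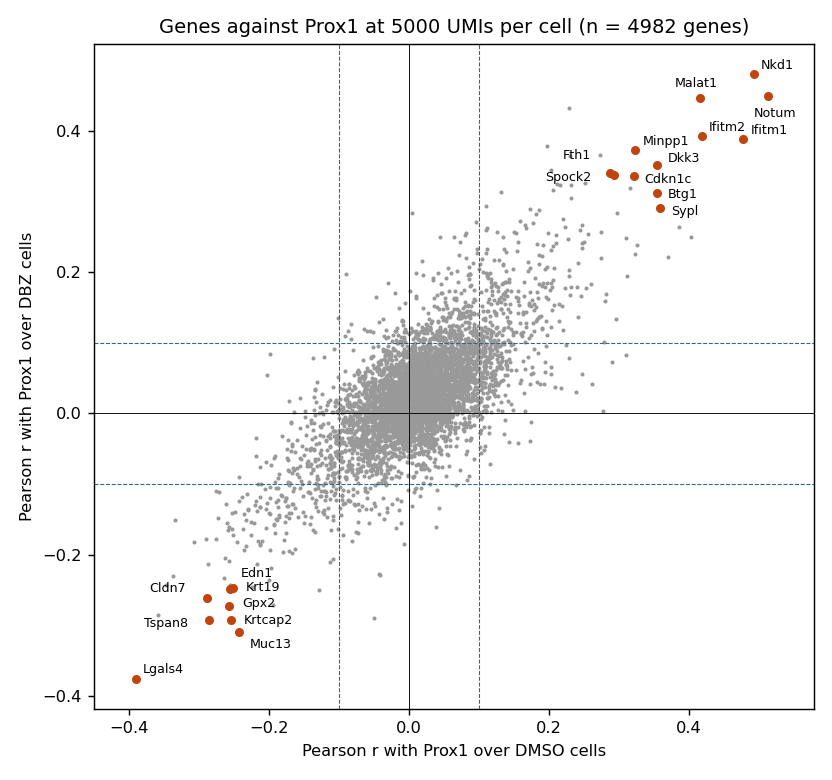
Pearson r of each of 4982 genes with Prox1 at 5000 UMIs per cell, over DMSO cells (horizontal) and DBZ cells (vertical), with dashed lines at 0.1 and -0.1 and the named genes in red. Nkd1 and Notum lie at the upper right (0.480 and 0.493, 0.450 and 0.514), and Lgals4 at the lower left (-0.375 and -0.390).

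Several epithelial surface and junction genes ran against Prox1. Lgals4, which encodes the gut lectin galectin 4, had the lowest values, r = -0.375 over DBZ cells and -0.390 over DMSO cells. Its level went from 4.73 in DBZ cells at 0 Prox1 UMIs to 0.118 at over 10. In the DMSO library it was 3.99 at 0, and 0 UMIs were found in the 18 cells at over 10. Tspan8 (-0.292 and -0.286), the tight junction gene Cldn7 (-0.261 and -0.288), the glutathione peroxidase gene Gpx2 (-0.272 and -0.257) and the transmembrane mucin gene Muc13 (-0.309 and -0.243) also ran against it. Krt19, a keratin of simple epithelia, had -0.246 and -0.252, the endothelin gene Edn1 -0.249 and -0.255, and Krtcap2, a subunit of the oligosaccharyltransferase, -0.292 and -0.255. Of 11 keratin and junction genes tested, 4 ran against Prox1 (Cldn7, Krt19, Cldn4 and Epcam) and 0 followed. The median r of this list was only -0.0744 in DBZ cells and -0.0362 in DMSO cells, and Krt18, Krt7, Ocln and Tjp1 had opposite signs in the libraries. Of 95 ribosomal protein genes tested, 42 ran against Prox1 and 0 followed. Over all genes tested, 3.13% ran against it and 5.62% followed. Eif2s2, a translation initiation factor gene, had -0.213 and -0.287.

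Prox1 was lower in cycling cells. Of 5 mitosis genes tested, 4 ran against it (Cdk1, Birc5, Ube2c and Top2a) and 0 followed. Of 8 DNA replication genes, 4 ran against it (Dut, Hells, Pcna and Tyms). Over all genes tested, 3.13% ran against it. With cluster means taken out, 0 genes of either list did. The median r of the mitosis genes then changed sign, from -0.119 to 0.0828 in DBZ cells and from -0.189 to 0.0472 in DMSO cells. That of the replication genes stayed negative, at -0.0258 and -0.0250. The mitosis-led cluster was itself formed on such genes, so taking out cluster means removes much of the contrast between cycling and other cells. This step therefore cannot decide whether the relation holds from cell to cell, and no conclusion is drawn from it. With total UMIs, mitochondrial share and Malat1 taken out, 0 genes of either list ran against Prox1. The DBZ cells with more than 1 UMI of mitosis genes had 6.83 Prox1 per 10000 and the others 9.86, and in the DMSO library the values were 3.94 and 6.73. With more than 3 UMIs of replication genes they were 6.49 and 9.96, and 3.92 and 6.98. Cycling cells were also deeper, with a median of 19771 UMIs in the mitosis-led cluster. Among cell cycle inhibitors Cdkn1c followed, Cdkn1a, a p53 target, ran against Prox1 (-0.147 and -0.117), and Cdkn1b did neither. With cluster means taken out, 0 of these inhibitors followed and 0 ran against it.

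Only 2 of 13 listed Notch targets had enough UMIs to be tested, too few to read against the share of 5.62% over all genes. Both, Hes1 (0.0888 and 0.139) and Bcl2l1 (0.0858 and 0.0191), lay under 0.1 in at least 1 library. Hes1 was far lower in the DBZ library as a whole, at 0.851 against 3.34, while its level over the Prox1 classes went from 0.552 to 1.02 in DBZ cells and from 2.31 to 4.78 in DMSO cells. Of 17 listed secretory regulators 6 could be tested, and Sox4 (0.195 and 0.312) and Xbp1 (0.201 and 0.170) followed. With cluster means taken out, 1 of the 6 followed. Atoh1, Neurog3 and Neurod1 were among those with too few UMIs to be tested, so the count does not describe them. The 31 enteroendocrine markers in the table summed to 29.7 UMIs per thinned cell at 0 Prox1 and 3.17 at over 10 in the DBZ library, and to 6.95 and 0.167 in the DMSO library. Few cells carry these sums: 5 cells held 93.4% of the Chgb UMIs of the DBZ class at 0 and 100% of those of the DMSO class.

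Of 14 tested genes of NuRD, a chromatin remodelling and deacetylase complex with which PROX1 can act, 0 followed and 0 ran against it, with a median r of 0.0208 and 0.0163. At shares of 5.62% and 3.13% over all genes, counts this low in a short list are no result about these genes, and the same holds for the intestinal factors below. Chd4 had 0.123 and 0.0689, and Hdac1 had 0.0823 and 0.131, each past 0.1 in 1 library. Hnf4a, a nuclear receptor gene, had -0.00260 and 0.0916. Cdx2, the intestinal identity factor, had -0.121 and -0.0168. Of 12 intestinal transcription factors 1 followed, Onecut2 (0.154 and 0.138). None of the 11 listed targets of PROX1 in lymphatic endothelium had enough UMIs to be tested.

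The relations were smaller inside clusters than over all cells. With each cluster's mean taken out, 46 genes followed (0.923%), 45 of them among the 280, and 23 ran against Prox1 (0.462%). Nkd1 then had r = 0.283 in DBZ cells and 0.305 in DMSO cells, and Notum 0.229 and 0.225. Over 14 sets of at least 50 cells of 1 cluster and 1 library, Nkd1 had r above 0 in 14, Notum and Ctnnb1 in 13 each, and Lgals4 in 1. Nkd1 had a median of 0.268 and ran from 0.0314 to 0.480, and Notum ran from -0.0468 to 0.494. Nkd1, Notum and Lgals4 were picked by their r over these same cells, so these counts are no separate support. With total UMIs, the mitochondrial share and Malat1 taken out instead, Nkd1 kept 0.363 and 0.391 and Notum 0.320 and 0.372. No mitosis or replication gene ran against Prox1 after either step. 

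The antisense neighbour Prox1os, whose start overlaps that of Prox1 on the other strand, was the neighbour most like it. It had a mean level of 0.602 from 821 UMIs in DBZ cells and 0.276 from 292 UMIs in DMSO cells, and r = 0.161 and 0.176 with Prox1. Whether the counting used strand is not stated, so reads of the overlap cannot be assigned to 1 of the genes. Of 37 annotated genes within 1 Mb, 13 were in the table and 4 could be tested. Atf3 had 0.0621 and 0.146, Angel2 0.049 and 0.078, and Smyd2 -0.0668 and -0.0945.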

How the data were processed

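Droplet single-cell libraries of DBZ-treated and DMSO-treated organoids were analysed from 1 deposited table. Per the submitters' processing notes the tools were Cell Ranger 2.1.1 and Seurat, without a version, and the build was mm10. How cells and genes were filtered is not given in the sources read here. The authors deposited natural log values, and from the values these are ln(1 + 10000 times the gene's share of a cell's UMIs). All 7553435 values above 0 were whole UMIs within a tolerance of 0.01, so UMIs were recovered. Cell columns begin with CTRL or GSI and were read as DMSO and DBZ by the meaning of the names. Totals were 16168229 and 13083018 UMIs.

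Levels are means over cells per 10000 UMIs, and log2 changes use a pseudocount of 0.05. Pooled ratios have exact conditional 95% intervals and single levels exact Poisson intervals. With 1 library per group no test and no count model was run. Cells were thinned to 5000 UMIs (seed 1). Clusters came from scanpy 1.11.5 and igraph 0.11.9 (2000 variable genes, 30 components, 15 neighbours, Leiden resolution 1, no integration), with Prox1 left out. Doublets were called at an expected rate of 5% in 2 DBZ (0.161%) and 6 DMSO cells (0.620%), which does little to remove them, and none was left out. Code was checked on simulated data.

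The genes named are the 12 of highest and 8 of lowest smaller-sized r over both libraries, without Gm and Rik names and genes of mitochondria or ribosomal proteins, the 6 highest and 4 lowest with cluster means taken out, 13 chosen genes, and leading members of the 28 lists. Genes of the neighbourhood and in the closing observations were named after their values were seen. Prox1, the lists and the alternatives were chosen with earlier results of these data known. One leading gene of a cluster is not reported here.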

Additional observations from a re-analysis of the deposited data

How the results depend on the processing

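The direction of the Prox1 difference was the same under every alternative run, and its size was not. The log2 difference of 0.67 was 0.59 with a pseudocount of 1, 0.79 from pooled UMIs, 0.62 after thinning and 0.55 without mitochondrial and ribosomal protein genes in the total. It was 0.89 without clusters from 1 library, 0.42 over the shared clusters with the same weights in both libraries and 0.77 without the named secretory clusters, the last chosen after seeing the data. The range over clusters became 10.9-fold in DBZ cells and 13.5-fold in DMSO cells at resolution 2, and 13.1-fold in DMSO cells with 1000 variable genes. The DBZ library was higher in 4 of 5, 6 of 7 and 7 of 9 shared clusters under other clusterings, and with 1000 variable genes 1 interval lay below 0.

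The count of followers depended on the setting. The 280 followers and 156 genes against became 100 and 64 at 2500 UMIs, 480 and 310 without thinning, 178 and 80 with depth and mitochondrial share taken out, 46 and 23 with cluster means taken out, and 114 and 56 at a bound of 0.15. Taking out Malat1 as well, an alternative added after seeing the data, gave 96 and 36, of which 88 and 32 were shared, and leaving out the secretory clusters gave 272 against. Another thinning seed gave 276 followers, of which 213 were shared. With cluster means taken out, 5 Wnt targets followed and 1 ran against Prox1, and 0 mitosis, 0 replication and 2 keratin and junction genes ran against it. Taking out Malat1 gave 0 mitosis and 0 replication genes. Among the 12 highest and 8 lowest named genes, no r reversed under the alternatives run for it. The median r of the mitosis genes did change sign with cluster means taken out. It went from -0.119 to 0.0828 in DBZ cells and from -0.189 to 0.0472 in DMSO cells. No paired analysis was possible because each group has 1 library. Leaving out a replicate was not possible for the same reason. Depth limits r for genes of few UMIs, and 1 library per group limits every comparison.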

Other observations

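A few genes stood differently to Prox1 in the 2 libraries. They were picked after their values were seen, and the difference between libraries was not tested. Among immediate early genes, switched on rapidly by growth signals, Fos had r = -0.0393 over DBZ cells and 0.174 over DMSO cells, and Ier2 0.0310 and 0.239. Ier3 ran against Prox1 in both, at -0.172 and -0.252. The level of Fos was 2.27 per 10000 UMIs in DBZ cells and 9.11 in DMSO cells. The median r of 12 immediate early genes was 0.0346 and 0.155, and Jun followed Prox1 in both libraries (0.234 and 0.247). Btg2, an antiproliferative gene outside that list, had 0.0412 and 0.262. Tgif1, a homeobox repressor gene of the TGF-beta pathway, had 0.00379 and 0.277.

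In the other direction, Anxa4, an annexin gene, had r = 0.283 over DBZ cells and 0.00411 over DMSO cells. Tmsb10, a thymosin gene, had 0.198 and -0.0900. Ftl1, the ferritin light chain gene, had 0.0840 and -0.198, while the heavy chain gene Fth1 followed Prox1 in both. Vim, an intermediate filament gene more usual in mesenchyme, followed Prox1 at 0.221 and 0.370, and the other 6 fibroblast markers listed had no row in the table.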
